A study of Mus musculus with 6 samples.

Results

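T cell receptor signalling and costimulation genes were followed in regulatory T cells (Treg) of the mouse colon and of a gut lymph node. The genes were a list of 40 that covers the receptor complex and its coreceptor, the kinases and adaptors next to it, costimulatory receptors, the branches further down to NFAT, and the attenuators of the signal. Members were all probes whose platform annotation carries the symbol of a listed gene, which gave 99 of the 45281 probes on the array, for 39 of its 19057 named genes. Lck, the kinase that starts the signal, is not analysed here. Total RNA came from sorted TCRβ+CD4+Foxp3+ cells, where TCRβ is a chain of the receptor, from C57BL/6 mice with the genotype Foxp3gfp in the steady state. The colon lamina propria (cLP Treg) and the mesenteric lymph node (MLN Treg) gave 3 Illumina bead arrays each. Both groups carried the same Foxp3gfp genotype, and no age or treatment is given in the labels. The lymph node arrays carry the letters MSN in their titles and were grouped by their tissue label, mesenteric lymph node. Nothing in the labels ties an array to an animal or a pool, and each p-value therefore reflects the spread among these samples, which may be technical.

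When the T cell receptor binds antigen, tyrosine kinases phosphorylate the tails of the CD3 and zeta chains, ZAP-70 docks there, and the adaptors LAT and SLP-76 gather phospholipase C gamma. One of its products opens calcium entry, which moves NFAT into the nucleus, and the other, diacylglycerol, turns on protein kinase C theta, the BCL10 and MALT1 complex, and RasGRP1. Costimulatory receptors such as CD28 and ICOS add to these signals, while phosphatases, ubiquitin ligases and diacylglycerol kinases damp them. Treg need both receptor and CD28 signals to develop and to keep their function.

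Of the 39 genes, 37 had a probe detected on at least 3 of the 6 arrays and were tested, 33 of them through a probe detected on all 6. Cd5, an inhibitory coreceptor, and Plcg1, which encodes phospholipase C gamma 1, had 1 probe each that was not detected on any array. That of Cd5 is annotated to a cDNA clone and not to a RefSeq transcript. Themis was kept through its MLN arrays alone, so that it had to differ. For each gene the probe with the highest mean is reported unless another is named, as the log2 of its background-corrected, quantile-normalised intensity, and a difference is the cLP mean minus the MLN mean. Probes bind with different strength, so levels are compared between samples and not between genes. A call is an adjusted p under 0.05 in limma, with Benjamini-Hochberg adjustment over all 9157 genes tested. In bulk samples, fewer cells of a type and less RNA per cell cannot be told apart.

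By that call cLP Treg had more RNA of 7 members and less of 12, while 18 did not pass. Without Themis it was 7 and 11 of 36. Higher genes were 18.9% of the members against 12.1% of all genes tested, and lower genes 32.4% against 20.3%. The members were chosen with earlier results of these data known, so these shares describe the list and do not test it. Called members were 51.4% in all, against 32.4% of all genes, or 29.4% of the 2291 genes at a mean level of at least 10.17, the 75th percentile, where 12 of 21 members were called. The 3 cLP values lay above the 3 MLN values in 8 members and below them in 15, which is 62.2% without overlap against 47% of all genes (16.8% above and 30.1% below). The median difference was -0.28 over the members and -0.21 over all genes tested. With arrays scaled to a common median in place of quantile normalisation (median scaling), 4 members were higher and 16 lower, and in the authors' deposited values 5 and 17, where the median of all genes lay at -0.51 and -0.30. Of all genes, 9.08% were higher and 33.2% lower with median scaling, and 9.63% and 30.4% in the deposited values. Without MLN sample 2, 4 members were higher and 11 lower, against 8.63% and 12.1% of all genes.

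**Figure D1:**
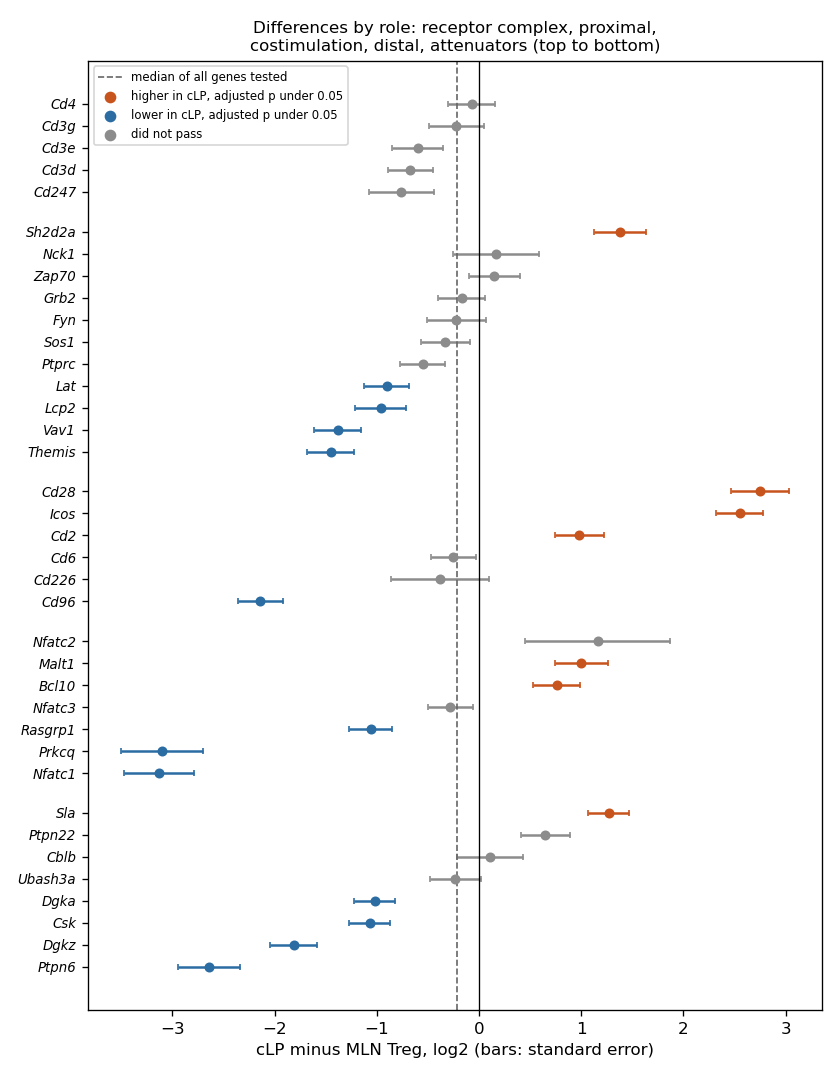
Difference between cLP and MLN Treg for the 37 members tested, on the log2 scale, with standard errors as bars, 1 row per gene in 5 role groups. Cd28 (2.75) and Icos (2.55) lie farthest to the right, and Nfatc1 (-3.13), Prkcq (-3.10) and Ptpn6 (-2.64) farthest to the left, while no gene of the receptor complex passed the test.

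Promoter windows are shown so that called members can be compared by their letters. RefSeq windows of the 250 bases before the start (GRCm38.p6) were found for 30 of the 40 listed genes, 45 windows in all, among them 11 of the 12 genes that fell and 1 of the 7 that rose. The lines give Prkcq, Ptpn6 and Cd96, the largest decreases with a window, and Bcl10, the increase with one, whose difference was the smallest of the called members, 5′ to 3′ along the gene. Capitals mark matches, on either strand, to TGGAAA, the core bound by NFAT, or to TGTGGT, a RUNX core.
Prkcq, chr2:11172132-11172381, plus strand: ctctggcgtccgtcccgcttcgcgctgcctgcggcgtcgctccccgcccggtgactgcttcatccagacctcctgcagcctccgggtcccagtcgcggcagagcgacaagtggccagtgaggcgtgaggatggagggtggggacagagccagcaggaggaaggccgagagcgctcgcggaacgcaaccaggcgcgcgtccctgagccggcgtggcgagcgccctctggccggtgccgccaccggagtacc
Ptpn6, chr6:124738710-124738959, minus strand: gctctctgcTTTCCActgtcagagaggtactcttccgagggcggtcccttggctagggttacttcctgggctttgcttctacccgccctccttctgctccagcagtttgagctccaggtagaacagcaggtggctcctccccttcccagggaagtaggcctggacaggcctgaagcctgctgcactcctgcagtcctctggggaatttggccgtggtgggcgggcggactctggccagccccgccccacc
Cd96, chr16:46120249-46120498, minus strand: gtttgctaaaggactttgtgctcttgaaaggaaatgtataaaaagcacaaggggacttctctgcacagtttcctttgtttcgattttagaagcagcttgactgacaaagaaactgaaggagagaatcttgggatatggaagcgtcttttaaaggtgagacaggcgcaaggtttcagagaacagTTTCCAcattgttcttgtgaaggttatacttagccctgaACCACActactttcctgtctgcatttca
Bcl10, chr3:145924012-145924261, plus strand: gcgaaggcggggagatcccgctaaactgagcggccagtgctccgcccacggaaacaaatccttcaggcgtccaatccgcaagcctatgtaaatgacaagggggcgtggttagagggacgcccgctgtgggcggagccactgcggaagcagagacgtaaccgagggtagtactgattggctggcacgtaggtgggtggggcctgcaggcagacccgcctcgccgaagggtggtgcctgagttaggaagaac
TGGAAA was present in 22.2% of member windows and in 18.6% of all 32851 windows, and in 5 of the 17 windows of genes that fell. A gene with several starts has a window for each, so these matches came from 8 of 30 genes and, among those that fell, from 3 of 11 (Cd96, Ptpn6 and Dgka). TGTGGT was present in 11.1% and 14.0%. TGANTCA (AP-1) and CCGGAAG (ETS) were found in 0 member windows, against 6.7% and 6.9% of all windows. The NFAT-type core lay 241 bases before the start in Ptpn6 and 67 in Cd96, and the RUNX core 28 bases before the start in Cd96, whereas the windows of Prkcq and Bcl10 held no match to these motifs. A match describes letters and not binding.

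The genes of the receptor complex did not pass the test. Cd3e, Cd3d and Cd3g encode the CD3 chains and Cd247 the zeta chain, whose tails carry the phosphorylation sites of the receptor. Cd3e read 13.47, 13.36 and 13.61 in MLN samples 1 to 3 and 12.50, 13.13 and 13.01 in cLP samples 1 to 3 (difference -0.60 ± 0.25, standard error; adjusted p = 0.102). Every cLP value of Cd3e lay below every MLN value, by 0.23 at the closest pair. Cd3d read 13.30, 13.22 and 12.93 in MLN Treg and 12.28, 12.58 and 12.59 in cLP Treg, again without overlap (-0.67 ± 0.22, adjusted p = 0.0549). Cd247 had a difference of -0.76 ± 0.32 (adjusted p = 0.112), with MLN sample 3 at 9.07 among the cLP values of 8.65 to 9.10. Cd3g read 12.16 to 12.27 in MLN Treg and 11.46, 12.19 and 12.30 in cLP Treg, so that cLP sample 1 alone stood apart (-0.22 ± 0.27, adjusted p = 0.572). Cd4, the coreceptor used in the sort, was detected on all 6 arrays, at 6.76 to 6.96 in MLN Treg and 6.52 to 7.04 in cLP Treg (-0.07 ± 0.23, adjusted p = 0.835). This probe was dim, at percentile 28.3 of level among all genes tested, and another Cd4 probe was detected on no array. Cd3e, Cd3d and Cd247 also passed as lower with median scaling (adjusted p = 0.0261, 0.0103 and 0.0169) and in the authors' deposited values. Of all genes, 33.2% were lower with median scaling and 30.4% in the deposited values. Cd3d passed in 7 of 18 alternatives, among them no background correction (0.0226) and limma's trend and robust settings (0.0134). Cd3e passed in 3, the trend and robust settings included (0.0328), and Cd247 in 3, once without MLN sample 3 (0.04). Across the alternatives Cd3e had adjusted p-values of 0.0261 to 0.275, Cd3d of 0.00725 to 0.186 and Cd247 of 0.0141 to 0.332. Relative to the median of all genes, the differences of -0.60, -0.67 and -0.76 were -0.39, -0.46 and -0.55.

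Next to the receptor, 4 of 11 measured genes were called lower and 1 higher, where 20.3% and 12.1% of all genes were. Without Themis, which the detection filter fixed, it was 3 and 1 of 10. Vav1, an exchange factor for Rac that links the receptor to the actin skeleton, read 13.13, 12.70 and 12.79 in MLN Treg and 11.71, 11.40 and 11.39 in cLP Treg. The lowest MLN value exceeded the highest cLP value by 0.99, and the gene fell by 1.38 ± 0.23 (2.60-fold lower, adjusted p = 0.00413). Lat, the membrane scaffold that ZAP-70 phosphorylates, read 14.34 to 14.45 in MLN Treg and 13.79, 13.47 and 13.29 in cLP Treg, and fell by 0.90 ± 0.22 (adjusted p = 0.0194). Its partner Lcp2, which encodes the adaptor SLP-76, read 12.12, 11.72 and 11.91 against 11.28, 10.91 and 10.67, and fell by 0.96 ± 0.25 (adjusted p = 0.0215). In all 3 genes no cLP value reached an MLN value. A second Lcp2 probe fell by 1.84 ± 0.23, while ILMN_1216191, annotated to a cDNA clone, differed by -0.46 ± 0.53 (adjusted p = 0.562 over all probes). Leaving out any MLN sample ended the call of Lat (adjusted p = 0.0646, 0.0678 and 0.0636 for samples 1 to 3, within 0.0018 to 0.0678 over all its alternatives). For Lcp2 the same happened on leaving out MLN sample 1 (0.0897), MLN sample 3 (0.0653) or cLP sample 2 (0.0533), in a span of 0.00256 to 0.567. Both also ended with the median difference of all genes set to 0 (0.0528 and 0.0543).

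Themis, a T cell adaptor that tunes receptor signals during thymic selection, was detected on 3 MLN arrays and on 0 cLP arrays. It read 5.91, 6.52 and 6.25 in MLN Treg and was not well above background in cLP Treg, where the readings were 4.74, 4.73 and 4.87, so on this background-corrected scale it was at least 1.64-fold lower. Its difference was -1.45, but -0.61 without background correction and -0.62 in the authors' deposited values. The bound of at least 1.64-fold sets the MLN mean against, for each cLP array, the lowest intensity among detected probes. Sh2d2a, which encodes the adaptor TSAd that binds Lck, went the other way. It read 12.58, 12.45 and 11.92 in MLN Treg and 13.72, 13.81 and 13.54 in cLP Treg, a rise of 1.38 ± 0.25 (2.60-fold higher, adjusted p = 0.00595). The remaining 6 measured genes of the group did not pass. Zap70, the kinase docked at the receptor, differed by 0.15 ± 0.25 and its second probe by 0.33 ± 0.26, with overlapping groups in both. Ptprc encodes CD45, the phosphatase that keeps Src kinases ready, and differed by -0.55 ± 0.22 (adjusted p = 0.0934) with all cLP values, 12.82 to 13.24, below the MLN values of 13.51 to 13.71. With median scaling Ptprc passed (-0.78, adjusted p = 0.0295; 0.0196 to 0.284 over its alternatives). Fyn, a Src kinase, and the adaptors Nck1 and Grb2 differed by -0.22 ± 0.29, 0.17 ± 0.42 and -0.17 ± 0.23, and the Ras exchange factor Sos1 by -0.33 ± 0.24. Sos1 was detected on 2 MLN arrays and 1 cLP array. The probes of Fyn and Grb2 were dim, at percentiles 18.4 and 22.4 of level among all genes tested. The sign of the differences of Zap70 and Nck1 turned with median scaling, that of Grb2 with the median difference set to 0, and that of Fyn without cLP sample 1.

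Costimulatory receptors held the largest increases of the list. Cd28, the receptor for CD80 and CD86 that supplies the main costimulatory signal, read 5.91, 5.94 and 6.24 in MLN Treg and 9.06, 9.01 and 8.27 in cLP Treg. No MLN value came within 2.03 of a cLP value, and the rise was 2.75 ± 0.28 (6.74-fold, adjusted p = 0.000657). Icos, the inducible costimulator of effector Treg, read 9.94, 9.82 and 10.34 against 12.50, 12.61 and 12.63, a rise of 2.55 ± 0.23 (5.85-fold, adjusted p = 0.000402). Its second probe gave 8.56, 8.84 and 8.56 against 11.83, 11.54 and 10.90, a rise of 2.77 ± 0.29. Both Icos probes thus separated the groups completely. The Cd28 probe was dim in the MLN arrays, and its difference was 1.67 without background correction and 1.62 in the authors' deposited values, both past the threshold (adjusted p = 0.00146 and 0.00089; 0.000388 to 0.00559 over its alternatives). Cd2, an adhesion receptor that binds CD48 in the mouse, read 12.65, 12.30 and 12.13 against 13.07, 13.45 and 13.51 and rose by 0.98 ± 0.24 (1.98-fold, adjusted p = 0.0194). Cd2 no longer passed on leaving out MLN sample 2 (0.0685), MLN sample 3 (0.0705) or cLP sample 2 (0.0515), or with median scaling (0.0609), in a span of 0.00418 to 0.0705.

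Cd96, a receptor of the nectin-binding family that shares the ligand CD155 with CD226 and TIGIT, was the costimulation-group gene that fell. It read 11.30, 10.86 and 10.97 in MLN Treg and 8.95, 8.96 and 8.80 in cLP Treg, so the groups lay 1.90 apart at their nearest values (-2.14 ± 0.22, 4.41-fold lower, adjusted p = 0.000668). Cd226, its activating counterpart, read 6.65, 6.28 and 6.22 in MLN Treg but 5.22, 7.14 and 5.66 in cLP Treg, on both sides of the MLN range (-0.38 ± 0.48, adjusted p = 0.589). Without cLP sample 2, the high value, its difference was -0.94 and passed (adjusted p = 0.046; 0.046 to 0.98 over its alternatives). Tigit, the inhibitory receptor of the same ligand, which is not in the list, rose by 2.98 (adjusted p = 0.000492). Cd6, a scavenger-type receptor that docks signalling adaptors, differed by -0.25 ± 0.22 (adjusted p = 0.441), with 4 kept probes between -0.31 and 0.58.

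**Figure D2:**
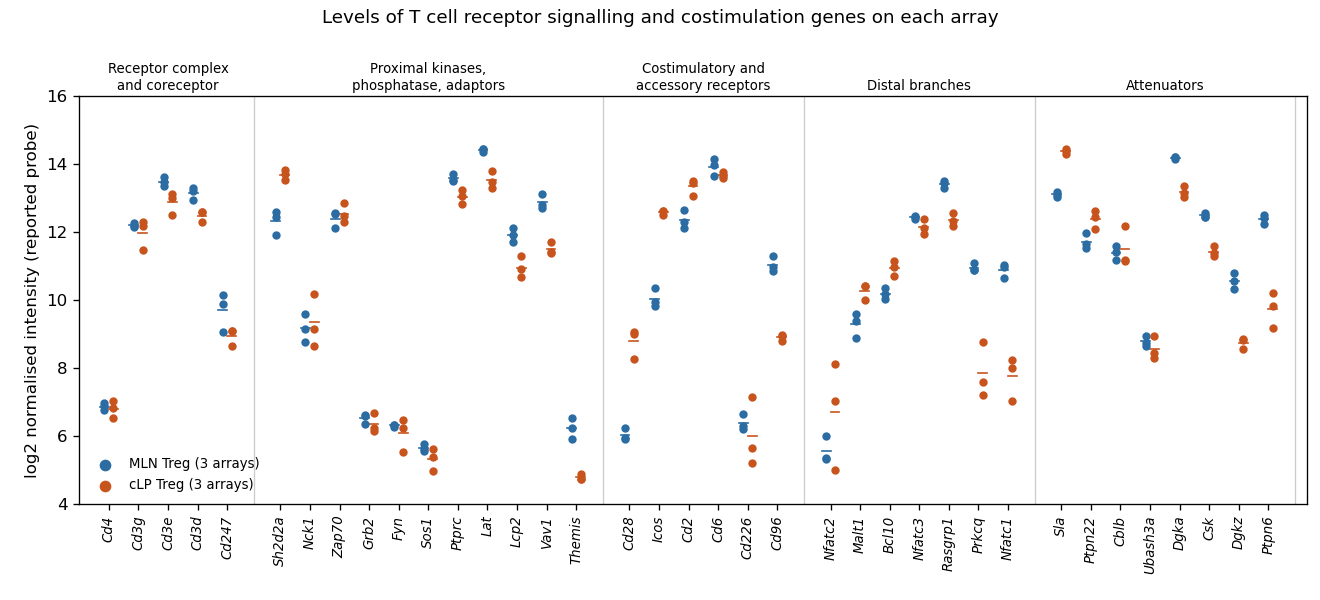
Log2 normalised intensity of each member's reported probe on every array, with MLN Treg in blue and cLP Treg in orange, short lines at the group means, and genes sorted within role groups by their difference. The Cd28 values move from 5.91 to 6.24 in MLN Treg up to 8.27 to 9.06 in cLP Treg, whereas those of Prkcq drop from 10.89 to 11.08 down to 7.20 to 8.77.

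The branches below the receptor moved in both directions. Prkcq, which encodes protein kinase C theta, read 11.08, 10.89 and 10.89 in MLN Treg and 8.77, 7.20 and 7.60 in cLP Treg. Its cLP values spread over 1.57, but all lay at least 2.12 below the MLN values, and the gene fell by 3.10 ± 0.40 (8.57-fold lower, adjusted p = 0.00159). Protein kinase C theta phosphorylates CARMA1, which then assembles BCL10 and the protease MALT1 to switch on NF-kB. Bcl10 read 10.17, 10.02 and 10.34 against 11.15, 10.96 and 10.70, a rise of 0.76 ± 0.23 (adjusted p = 0.0366), and Malt1 read 8.87, 9.38 and 9.58 against 10.40, 10.41 and 10.01, a rise of 1.00 ± 0.26 (adjusted p = 0.0249). Neither gene overlapped between groups, but both calls ended in the authors' deposited values (0.217 and 0.1) and with median scaling (0.391 and 0.154). Leaving out any sample but cLP sample 3 ended the call of Bcl10 (0.114, 0.123 and 0.0677 for the MLN samples, 0.0852 and 0.0785 for cLP samples 1 and 2, in a span of 0.0165 to 0.391). For Malt1 this held for MLN samples 1 (0.0959) and 2 (0.0655) and for cLP samples 1 (0.0589) and 2 (0.0653), in a span of 0.0132 to 0.154. Rasgrp1, the exchange factor through which diacylglycerol activates Ras, read 13.49, 13.44 and 13.30 against 12.57, 12.32 and 12.17 and fell by 1.06 ± 0.21 (2.08-fold lower, adjusted p = 0.00928). Its other probes were not kept. ILMN_1246905 was detected on 2 cLP and 0 MLN arrays, at 5.15, 4.96 and 4.87 against 7.10, 7.88 and 5.03. ILMN_1214318 was detected on 2 MLN and 0 cLP arrays.

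Of the NFAT genes, Nfatc1 fell by 3.13 ± 0.34, the largest decrease of the list (8.74-fold lower, adjusted p = 0.000876). NFATc1 is the calcineurin-dependent factor whose own short isoform is induced by receptor signals. Its values were 10.64, 10.97 and 11.04 in MLN Treg and 8.0, 7.03 and 8.24 in cLP Treg. A second probe, ILMN_1216522, fell by 2.69 ± 0.23, and ILMN_2648704 was kept through its MLN arrays alone and was at least 1.62-fold lower. These 3 probes share a transcript accession in the annotation. A probe annotated to another Nfatc1 transcript, ILMN_1224430, read 8.99, 8.62 and 9.10 in MLN Treg and 9.29, 8.67 and 9.33 in cLP Treg, a difference of 0.20 ± 0.27 (adjusted p = 0.627 over all probes). Its groups overlapped where those of the reported probe were separate. The 2 further probes of that transcript were not detected on any array. Nfatc2 was measured through a probe annotated to a cDNA clone, and its other probes, those of its RefSeq transcripts included, were detected on no array. The clone probe was detected on 1 MLN and 2 cLP arrays and read 8.11, 5.01 and 7.03 in cLP Treg, too wide a spread to pass (1.16 ± 0.71, adjusted p = 0.254). Without cLP sample 2 the difference of this Nfatc2 probe was 2.01 (adjusted p = 0.0141; 0.0141 to 0.593 over its alternatives). Nfatc3 read 12.37 to 12.48 against 11.93 to 12.39 (-0.28 ± 0.22, adjusted p = 0.371), with overlap, and passed in the authors' deposited values (-0.54, 0.0361, in a span of 0.0361 to 0.838).

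Among the attenuators, 4 of 8 fell and 1 rose, where 20.3% and 12.1% of all genes did. Ptpn6, which encodes the phosphatase SHP-1, read 12.49, 12.42 and 12.23 in MLN Treg and 9.81, 9.19 and 10.22 in cLP Treg. The nearest values of the groups were 2.01 apart, and it fell by 2.64 ± 0.30 (6.25-fold lower, adjusted p = 0.000921). Its other probe, annotated to a different transcript, fell by 2.88 ± 0.28. Both diacylglycerol kinases fell, the enzymes that remove the lipid needed by RasGRP1 and protein kinase C theta. Dgkz read 10.56, 10.80 and 10.31 against 8.83, 8.85 and 8.57 (-1.81 ± 0.23, 3.50-fold lower, adjusted p = 0.00149), and its other 2 kept probes fell by 1.6 and 0.87. Dgka read 14.21, 14.15 and 14.20 against 13.14, 13.03 and 13.34 (-1.02 ± 0.20, 2.03-fold lower, adjusted p = 0.00888), and its second probe fell by 0.89. Csk, the kinase that holds Src family kinases in their closed state, read 12.56, 12.45 and 12.44 against 11.29, 11.37 and 11.58 (-1.07 ± 0.20, 2.10-fold lower, adjusted p = 0.00728). For all 4 genes the lowest MLN value exceeded the highest cLP value.

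Sla, the Src-like adaptor that sends the receptor for degradation, rose. It read 13.02, 13.19 and 13.10 in MLN Treg and 14.39, 14.45 and 14.28 in cLP Treg (1.27 ± 0.20, 2.40-fold higher, adjusted p = 0.00351), with an SD of 0.09 in each group. A dimmer probe annotated to another transcript, ILMN_1216337, gave 6.01, 5.51 and 6.34 against 9.12, 8.71 and 8.85, a rise of 2.94 ± 0.28. Ptpn22, a phosphatase of Src kinases and ZAP-70, differed by 0.65 ± 0.24 and did not pass (adjusted p = 0.0766), although its cLP values of 12.08 to 12.61 lay above the MLN values of 11.54 to 11.98. It passed without background correction (0.0413), with the median difference set to 0 (0.0336) and with limma's trend and robust settings (0.0342), in a span of 0.0336 to 0.458. Ubash3a, a phosphatase-like suppressor of T cell signals, read 8.65 to 8.95 against 8.30 to 8.93 (-0.23 ± 0.25, adjusted p = 0.528). Cblb, a ubiquitin ligase that enforces the need for CD28, differed by 0.11 ± 0.32 (adjusted p = 0.833), with cLP sample 1 at 12.18 and the other 2 at 11.15 and 11.18. The sign of that difference turned with median scaling (-0.31) and without cLP sample 1 (-0.23).

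Of the 99 member probes, 63 were kept, of which 10 were higher and 19 lower in cLP Treg when adjusted over the 16215 kept probes, where 31.8% were called, 14.5% higher and 17.4% lower. Of these, 1 higher and 2 lower probes were detected in 1 group alone. Of 17 members with several kept probes, 0 had probes called in opposite directions, against 2.96% of such genes on the array, and in 3, Cblb, Lcp2 and Nfatc1, some probes passed and others did not. Cblb differed most between its probes. The 2 probes annotated to its RefSeq transcript gave 0.11 ± 0.33 and 0.35 ± 0.31, while ILMN_2565243, annotated to a cDNA clone, was detected on no MLN array, at 4.65, 4.74 and 4.72, and read 10.65, 10.05 and 9.11 in cLP Treg. This probe was kept through its cLP arrays alone, so that it had to differ, and was at least 20.6-fold higher there. With the mean of the Cblb probes in place of the brightest, the gene passed as higher (1.90, adjusted p = 0.00376; 0.000272 to 0.995 over its alternatives). Other clone-annotated probes were uneven between the arrays. That of Ptpn22 (ILMN_1245051) was detected on 2 cLP arrays, at 5.34, 8.13 and 7.65, and on 0 MLN arrays, and a kept Nfatc3 probe (ILMN_1240030) read 10.19, 9.12 and 5.06 in cLP Treg. Of the 18 member probes annotated to records other than RefSeq transcripts, 7 were detected on more cLP than MLN arrays and 2 on more MLN arrays, with 9 equal. Of the 81 annotated to RefSeq transcripts, 7 were detected on more arrays in either group and 67 on equal numbers. For Ptprc, a dim probe (ILMN_2671984) gave 6.08, 5.97 and 7.64 against 7.46, 8.35 and 8.64 (1.59 ± 0.51, adjusted p = 0.0507 over all probes), opposite in sign to the reported probe.

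**Figure D3:**
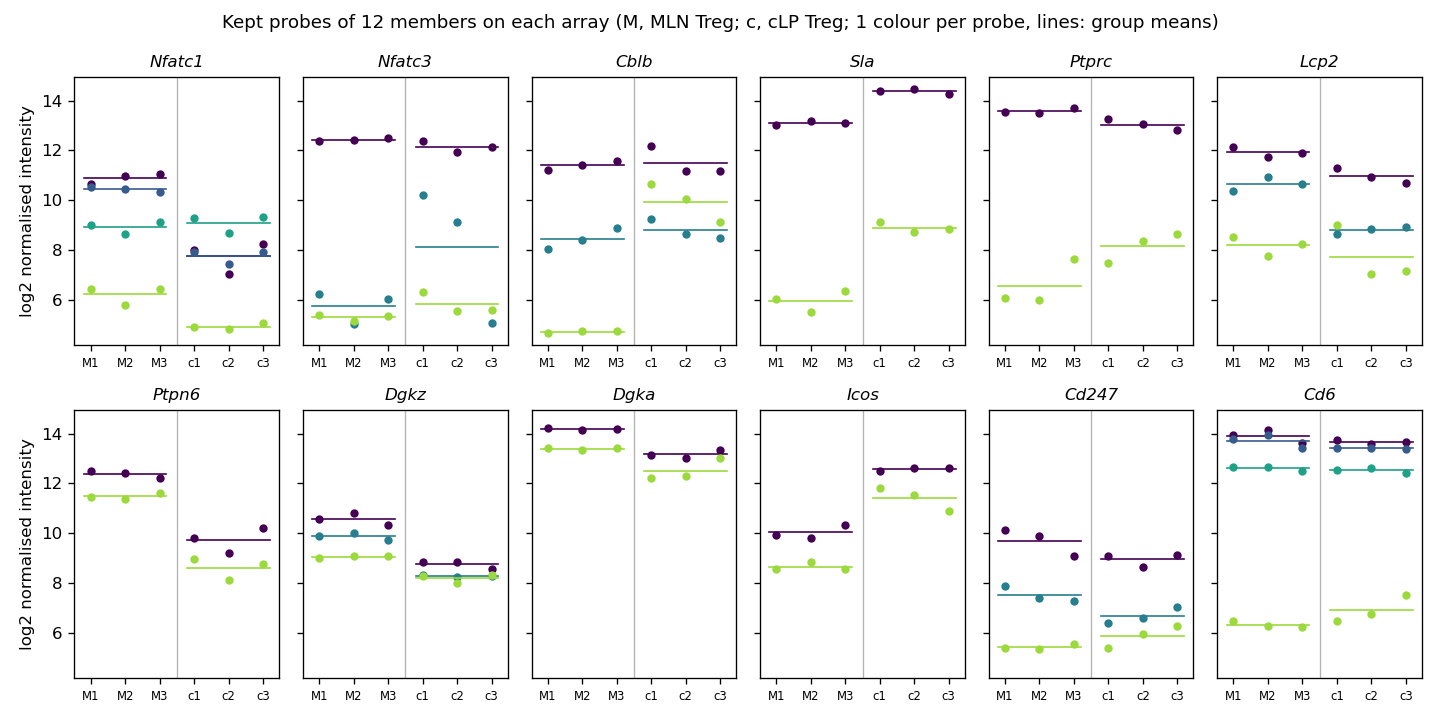
Log2 normalised intensity of every kept probe of 12 members on each array, with 1 colour per probe, lines at group means, MLN samples (M) left and cLP samples (c) right. Probes of Ptpn6, Dgkz, Dgka and Icos shift together, whereas 3 Nfatc1 probes drop and ILMN_1224430 stays between 8.62 and 9.33, and 1 Cblb probe rises from 4.65 to 4.74 up to 9.11 to 10.65.

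The members repeated closely between arrays of a group. Their median SD was 0.197 in MLN Treg and 0.253 in cLP Treg, against 0.256 and 0.383 over all genes tested, and 25 of 37 members had the larger SD in cLP Treg. A range over 1 was seen in 7 members in cLP Treg (Nck1, Cd226, Prkcq, Nfatc1, Nfatc2, Ptpn6 and Cblb) and in 1 in MLN Treg (Cd247). No cLP array was low throughout, since samples 1, 2 and 3 held the lowest cLP value in 12, 13 and 12 members. Across the 37 members, Pearson's r was 0.992 to 0.996 between MLN arrays, 0.962 to 0.979 between cLP arrays and 0.856 to 0.891 between groups, where probes share their brightness and genes are not independent replicates.

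**Figure D4:**
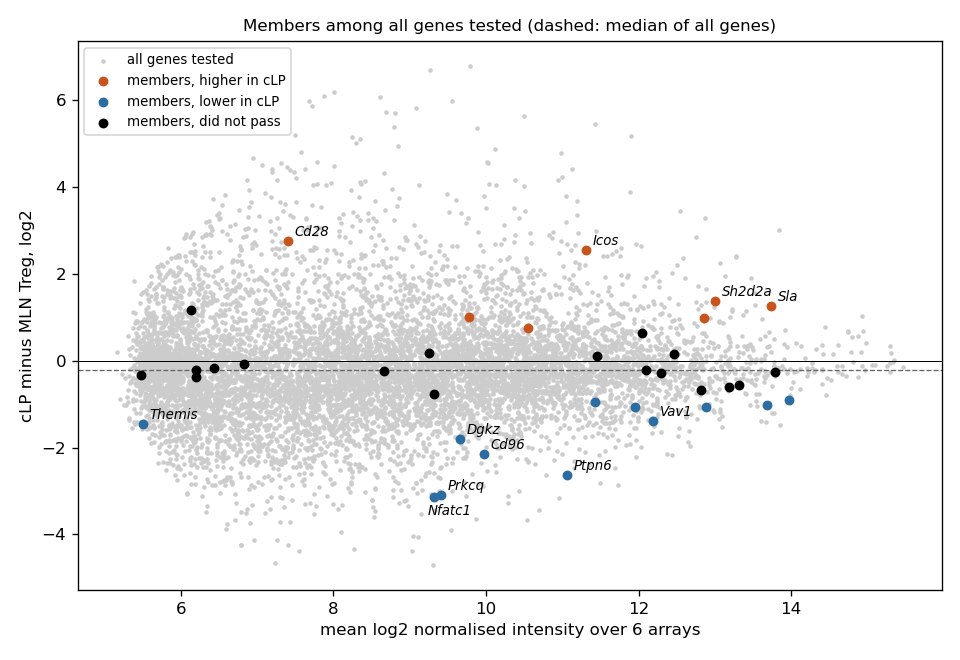
Mean log2 normalised intensity over the 6 arrays (x axis) against the difference between cLP and MLN Treg (y axis) for all 9157 genes tested in grey, with the members in colour. Members lie mostly at high intensity, 21 of 37 at or above 10.17, and Cd28 stands at the 98th percentile and Nfatc1 at the 0.6th percentile of all differences.

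Further genes of the pathway, from 8 lists that hold no member, were split as well. Their shares are to be read in the main setting against 12.1% higher and 20.3% lower over all genes. These lists too were chosen with earlier results of these data known. They held 28 higher and 36 lower genes in all, but 14 and 58 with median scaling, 20 and 53 in the authors' deposited values, and 16 to 25 and 24 to 38 when 1 sample was left out (16 and 24 without MLN sample 1, 16 and 27 without sample 2, 17 and 27 without sample 3). Over all genes 9.08% were higher and 33.2% lower with median scaling, and 9.63% and 30.4% in the deposited values. Without MLN samples 1, 2 and 3 those shares were 8.08% and 11.2%, 8.63% and 12.1%, and 9.1% and 12.7%. Of the 28 and 36, Pag1, Ksr1, Braf and Traf2 were detected in 1 group alone. Of 22 other proximal kinases and adaptors tested, 5 rose and 2 fell, against 2 and 1 on leaving out MLN sample 1, 2 or 3. With median scaling 3 were higher and 7 lower, and 6 were lower in the authors' deposited values. Grap2, the adaptor that bridges LAT and SLP-76, rose by 3.06, while Lax1, a transmembrane adaptor that damps signalling, fell by 1.61, a call that was lost on leaving out any MLN sample (adjusted p = 0.0776, 0.129 and 0.114) or cLP sample 2 (0.0641), in a span of 0.00644 to 0.129. Without cLP sample 3 the difference of Lax1 was -1.03. Of 15 other attenuators, 2 rose and 6 fell, with the tyrosine phosphatase Ptpn2 at 3.95 (detected on 2 MLN arrays; 3.23 without MLN sample 2) and the ubiquitin ligase Dtx1 at -2.81. Of 22 calcium and calcineurin genes, 5 rose and 8 fell, against 2 and 6 without MLN sample 1 or 3, 3 and 5 without MLN sample 2, 3 and 6 without cLP sample 2, and 0 and 10 with median scaling. Rcan3, a regulator of calcineurin, fell by 2.48, and Gsk3b, the kinase that returns NFAT to the cytoplasm, rose by 1.47, but its kept probe with the lowest mean was lower (-1.08, adjusted p = 0.0386; 0.0066 to 0.621 over its alternatives).

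In the Ras and MAP kinase branch, 3 of 16 genes rose and 3 fell, against 2 and 9 with median scaling. In the authors' deposited values 7 were lower, and with limma's trend and robust settings 5. Map2k3, a kinase of p38, differed by 2.68 and Rasgrp2, another exchange factor, by -1.94. In the PI3 kinase, AKT and mTOR branch, 1 of 16 rose and 5 fell (3 lower without MLN sample 1 or 3, 1 higher and 7 lower with median scaling, and 6 higher by the mean of probes), with Foxo3, a transcription factor held down by AKT, at 2.01 and Pik3cd, the leukocyte catalytic subunit, at -1.59 (-0.48 by its probe with the lowest mean, adjusted p = 0.246; 0.00178 to 0.246 over its alternatives). Among partners of BCL10 and MALT1 and the IKK complex, 4 of 14 rose and 4 fell, against 2 higher without MLN sample 2 and 2 lower on leaving out MLN sample 1, MLN sample 3 or cLP sample 2. With median scaling 3 of them were higher and 6 lower. Tnfaip3, which encodes the deubiquitinase A20, rose by 3.28 (adjusted p = 0.000249), and Traf2, a ubiquitin ligase of TNF receptor signalling, was kept through its MLN arrays alone, so that it had to differ (-3.68, and -1.99 without background correction). Of 20 genes of the cytoskeleton at the synapse, 4 rose and 5 fell, while 1 to 2 were higher when any sample was left out, and 2 and 3 lower without MLN samples 2 and 1. With median scaling 1 of these was higher and 7 lower. Wipf1, the partner of the actin regulator WASP, fell by 2.40. Pak2, a kinase activated by Rac, rose by 1.75, with a call that ended when any sample but cLP sample 2 was left out (adjusted p = 0.06 to 0.111; 0.0158 to 0.865 over its alternatives). Of 18 SLAM family and other surface genes, 4 rose and 3 fell (2 higher without MLN sample 1 or 3, 2 higher and 5 lower with median scaling, and 5 lower in the authors' deposited values), with Tigit at 2.98 and the SLAM family receptor Ly9 at -1.29 (adjusted p = 0.0931 by its probe with the lowest mean; 0.00168 to 0.0931 over its alternatives).

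Of 9 Treg markers measured, Foxp3 differed by -0.01 (adjusted p = 0.986), with overlapping groups, and the other 8 were called. Ikzf2 (2.23), Tnfrsf4 (1.57), Tnfrsf18 (1.25) and Ctla4 (1.04) were higher in cLP Treg, and Gpr83 (-3.01), Izumo1r (-2.20), Nrp1 (-2.03) and Il2ra (-1.66) were lower. Without MLN sample 1 or 3, 2 of them were higher. Probes were detected at shares of 32.68% to 35.43%, and signal over background, the median of detected over undetected probes, was 3.33 to 4.10 in MLN and 2.61 to 3.18 in cLP samples. Markers of other cells moved with the groups. Of 20 stromal and endothelial markers on the array 7 were measured and 5 were higher, of which Col3a1, Col6a1, Sparc and the reported probe of Acta2 were kept through their cLP arrays alone, with a summed level (log2 of summed intensities) of 9.78 to 10.22 in MLN and 11.69 to 12.26 in cLP samples, while Col1a1, Lum, Pdgfrb, Tagln and Cdh5 were detected on no array. Another of the 6 Acta2 probes was detected on 3 MLN arrays. Of 11 innate lymphoid and mast cell markers 2, Hdc and Kit, were measured and both were higher (6.11 to 8.31 against 9.42 to 11.13, and 1 on leaving out sample 1 or 2 of either group), while 8, Cpa3 and Tpsb2 among them, were detected on no array. Of 8 plasma cell markers 4 were measured and 3 were higher (12.07 to 12.13 against 12.94 to 13.13, and 1 when any MLN sample was left out), Jchain through its cLP arrays alone, without a detected probe for Sdc1, Derl3 or Tnfrsf17. Of 8 B cell markers 5 were measured and 2 were lower (9.06 to 9.93 against 7.84 to 7.96), and Pax5, Fcer2a and Cr2 were detected on no array. Of 16 myeloid markers 4 were measured and 2 were lower (10.69 to 11.31 against 11 to 11.34, with 0 lower in limma when MLN sample 1, MLN sample 2 or cLP sample 2 was left out, and 1 when sample 3 of either group was), with 8, Itgam, Itgax and C1qa among them, on no array. Of 15 epithelial markers 5 were measured and 0 were called by limma (9.95 to 10.30 against 9.84 to 11.54), with Vil1, Car4, Tff3 and Fabp2 on no array. Krt8 differed by 1.64 without overlap (adjusted p = 0.055), Krt18, Muc2 and Car1 were detected on 2 cLP and 0 MLN arrays, and Krt19, Krt20 and Slc26a3 on 1 cLP and 0 MLN arrays. Without cLP sample 1, 2 epithelial markers were called higher. Of 9 cytotoxic and CD8 markers 4 were measured and 2 were higher (14.26 to 14.59 against 14.98 to 15.04, and 1 when any sample but cLP sample 3 was left out), and 5, Cd8a and Eomes among them, were detected on no array while Cd8b1 was detected on all 6. The part of these cells in the differences of the members was not tested.

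**Figure D5:**
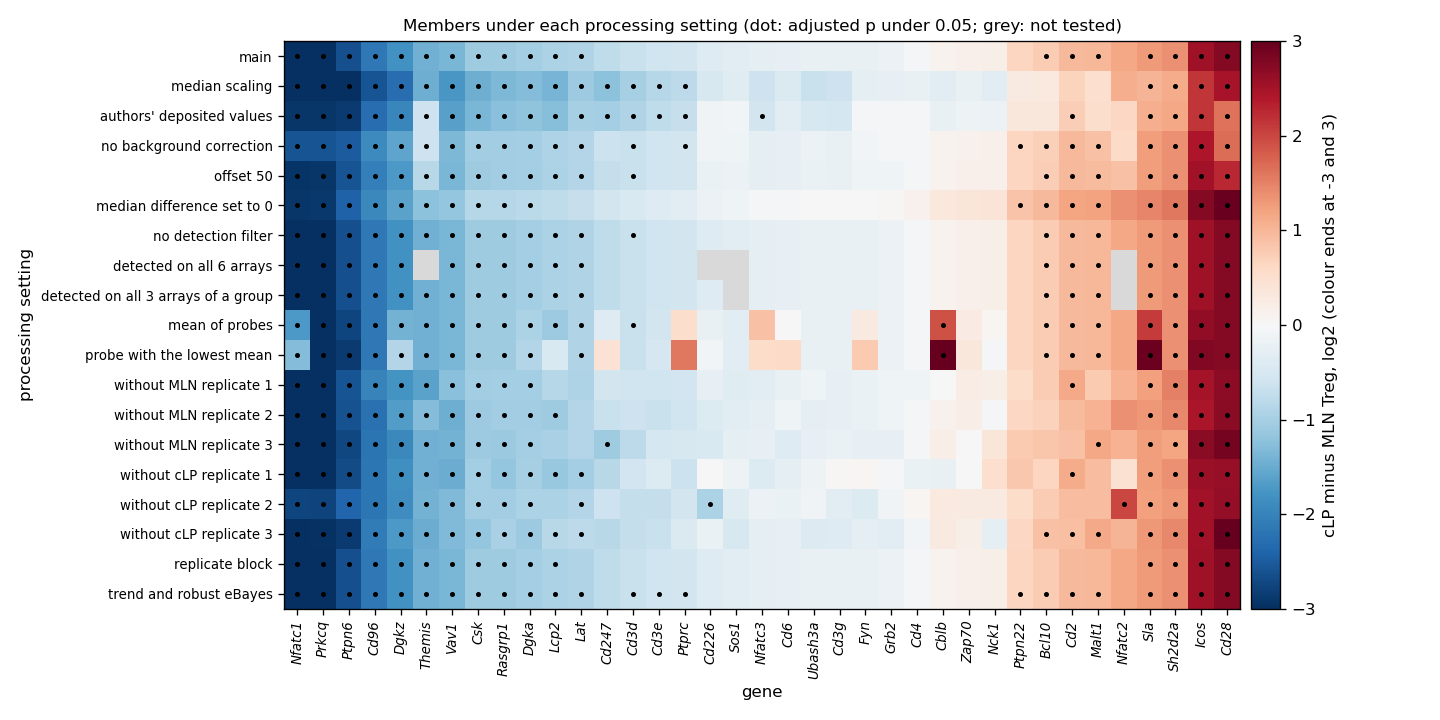
Difference between cLP and MLN Treg (colour, log2) for the 37 members under the main setting and 18 alternatives, with a dot where the adjusted p was under 0.05 and grey where a gene was not tested. The columns of Nfatc1, Prkcq, Ptpn6, Cd96, Icos and Cd28 keep their sign and dot in every row where they were tested, while Bcl10, Malt1, Cd2, Lat and Lcp2 lose theirs in some. No row takes the Nfatc1 probe ILMN_1224430 by itself.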

How the data were processed

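The authors deposited the linear intensity of each probe, and log2 values; the submitters' processing notes name GenomeStudio 1.6.0. The deposited detection column rises with intensity (rank correlation 0.9911 or more on each array). It was taken as the fraction of negative controls below the probe, and 1 minus it as the detection p. The deposited log2 values equal the log2 intensity minus that of the array's 75th percentile. Their column medians were -0.728, -0.607 and -0.848 in MLN samples 1 to 3 and -0.596, -0.689 and -0.661 in cLP samples 1 to 3. All 45281 probes of the tables were matched by value on the 6 arrays within 0.1 (largest difference 0.0347). Symbols came from the platform annotation, with 34885 probes of 1 symbol, 18 of several and 10378 of none, the last 2 kinds left out of gene tests.

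In limma 3.58.1 (R 4.3.3), intensities were corrected by normexp with an offset of 16 and quantile normalised (neqc). Probes with a detection p under 0.05 on at least 3 arrays were kept, the brightest per gene was tested without a block, with Benjamini-Hochberg adjustment of the p-values. The code was tested on simulated data. Members and lists were chosen with earlier results of these data known. Named genes are all members, and of each pathway list the highest and the lowest difference past the threshold. Titles share replicate numbers, but deviations of same-numbered samples correlated at -0.164, -0.104 and -0.011, so the numbers were not taken as pairs. The labels give no chip or scan batch, and the number of arrays limits precision.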

Additional observations from a re-analysis of the deposited data

How the results depend on the processing

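Of the 19 members called, 14, Themis included, kept their call in every alternative in which they were tested, and 0 changed sign. Themis was kept through its MLN arrays alone and had to differ, so its kept call says nothing about stability. For Nfatc1 no alternative took ILMN_1224430 (0.20 ± 0.27) by itself. Its probe with the lowest mean was ILMN_2648704, which was kept through its MLN arrays alone and so had to differ. Bcl10, Malt1, Cd2, Lat and Lcp2 lost their call in at least 1 alternative. Without a replicate, 4 to 7 members were higher and 10 to 12 lower. Over the array the genes higher then numbered 740 to 1176 and the genes lower 1026 to 2044. Median scaling gave 4 higher members, 3042 lower genes and a median difference of the members of -0.62. Higher genes were 37.3% of all calls, 21.5% with median scaling, 24.1% in the authors' deposited values and 50.3% with the median difference set to 0. With the replicate number as a block, 4 members were higher and 11 lower, against 10.2% and 16.5% of all genes. The calls of Lat (adjusted p = 0.0594), Cd2 (0.0593), Malt1 (0.0625), Bcl10 (0.0969) and, among pathway genes, Lax1 (0.0503) ended with that block. No pairing was assumed. The causes were not tested. Lowest and highest differences on leaving out a replicate were -0.38 and 0.04 for Cd3g, -0.20 and 0.06 for Cd4, -0.42 and 0.06 for Fyn, -0.01 and 0.27 for Zap70, -0.26 and 0.51 for Nck1, -0.94 and 0.02 for Cd226, and -0.23 and 0.29 for Cblb.

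Signs turned in members that did not pass. With median scaling Zap70 was -0.23, Nck1 -0.31 and Cblb -0.31, and in the authors' deposited values -0.15, -0.18 and -0.22. With the median difference set to 0, Cd4 was 0.13, Grb2 0.04 and Foxp3 0.20. The mean of probes gave Fyn 0.28, Ptprc 0.52, Nfatc3 0.88 and Foxp3 0.21. The probe with the lowest mean gave Cd247 0.44, Fyn 0.79, Ptprc 1.59, Nck1 -0.07, Cd6 0.58, Nfatc3 0.54 and Foxp3 0.14, and among called pathway genes Gsk3b -1.08 and Pak2 -0.11. Foxp3 turned without MLN sample 2 (0.09) or 3 (0.00) and without cLP sample 2 (0.10) or 3 (0.02). Folds of dim probes depend on the background correction, and 3 arrays a group limit what could be called.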
